A study of Hordeum vulgare with 6 samples.

Results

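The squamosa promoter-binding-like (SPL) genes encode transcription factors found only in plants, which share the zinc-binding SBP domain and bind DNA through it. They were taken from the deposited barley annotation as the genes whose description names the squamosa promoter, an SBP-box or an SBP domain. Of the 40411 genes listed, 25 matched. One of them, 2HG0169260, is a PsbP domain protein of the photosystem that was caught only because its description contains the same letters, and it was set aside, which left 24 SPL genes. Gene identifiers are given without their common prefix HORVU.MOREX.r3. The domain columns of the annotation listed the SBP domain for 17 of the 24 and not for the other 7, and no gene carried the domain without the description. The annotation rated 18 of the 24 as high confidence and 6 as low confidence. The members were chosen by description, but with earlier results of these libraries known. Among them, 2HG0189580 had been named for its lower TPM in *msnsd* in these same libraries, so its values are described below and not tested.

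RNA-seq was done on immature panicles, 0.5 to 1 cm long, collected between the glume primordium and lemma primordium stages. The mutant *msnsd* gave 3 libraries and its parent E934 gave 3. E934 is the feed barley variety from which *msnsd* was obtained by treatment with ethyl methane sulfonate (EMS) and radioactive cobalt. The mutant has more stem nodes, more than 1 spike on a tiller and a short stem. Both genotypes therefore share the E934 background, the mutant may carry other changes induced by the treatment, and only 1 mutant line was used. The replicates were described as biological, but the number of plants in each was not given, so p-values measure the spread between these samples. Every library held markers of young inflorescence: the 10 knotted-like homeobox genes summed to 227–247 TPM in *msnsd* and 228–240 TPM in E934, and the 2 LEAFY-like genes to 41.8–44.8 TPM in *msnsd* and 34.6–46.1 TPM in E934. The 6 genes of the small rubisco subunit, which mark leaf tissue, summed to 192–235 TPM in *msnsd* and 117–255 TPM in E934, and the 31 chlorophyll a-b binding genes to 316–559 TPM in *msnsd* and 364–416 TPM in E934. Single marker genes differed within these sums: at an unadjusted p under 0.05 (limma), 3 of 9 tested knotted-like genes, 1 of 2 LEAFY-like genes, 1 of 4 rubisco small subunit genes and 2 of 27 chlorophyll a-b binding genes were higher in *msnsd*, and 2 of the chlorophyll a-b binding genes were lower. The LEAFY-like gene 2HG0194240 had 28.9 ± 3.17 TPM in *msnsd* and 20.3 ± 2.59 TPM in E934 (SD, n = 3 each). The part of tissue composition in the differences below was not tested.

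In plants, many SPL transcripts are cut or kept from translation by the microRNA miR156, which is abundant in young shoots and declines with age. As it declines, SPL proteins accumulate and promote the change to adult and flowering growth. In Arabidopsis they do this partly by activating miR172, which represses AP2-like factors, and partly by activating MADS-box genes of the meristem. A separate group of long SPL proteins in Arabidopsis has ankyrin repeats and is not a target of miR156. In rice, IDEAL PLANT ARCHITECTURE1, an SPL protein, lowers tiller number and increases panicle branching, and in maize and rice the SPL protein LIGULELESS1 is needed for the ligule. None of these names was assigned to a barley gene here, and miR156 itself was not measured in these libraries.

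The 24 genes were spread over all 7 chromosomes, with 6 on 7H, 5 on 5H, 4 on 6H, 3 on 2H and 2 each on 1H, 3H and 4H. In young panicles 21 of them had a mean of at least 1 TPM over the 6 libraries and 15 had at least 10 TPM. TPM, the unit of the deposited levels, divides reads by transcript length and by the library total, so that levels can be compared between genes. All 17 members with a listed SBP domain reached 1 TPM. The median of the members' means was 15.7 TPM, against 5.13 TPM over all 32968 genes with a mean of at least 0.1 TPM.

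A single gene dominated the family's transcripts. The most abundant member was 2HG0142950 (chromosome 2H, 231304647–231306900, Morex V3 assembly), with 432.27, 468.87 and 436.06 TPM in the *msnsd* libraries and 324.98, 389.84 and 362.12 TPM in the E934 libraries. It made up 46.1% ± 1.16 of the family's TPM in *msnsd* and 43% ± 2.4 in E934 (SD, n = 3 each), and the lowest *msnsd* share (44.8%) was just above the highest E934 share (44.4%). The next member in level, 5HG0494180, had 70.84, 83.74 and 66.84 TPM in *msnsd* and 84.59, 76.64 and 65.72 TPM in E934, with no separation of the genotypes. In 6HG0557190 the values were 79.37, 83.42 and 74.52 TPM in *msnsd*, against 58.15, 65.84 and 60.63 TPM in E934, and every *msnsd* library was higher. In 7HG0680770 they were 73.91, 67.07 and 63.83 TPM in *msnsd* and 53.16, 70.05 and 59.67 TPM in E934, which overlapped. The fifth member, 5HG0494170, had 48.80, 52.68 and 49.74 TPM in *msnsd* and 45.61, 43.66 and 40.56 TPM in E934, without overlap.

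Going down the order of levels, most neighbours could not be separated. The ranges of neighbouring members over the 6 libraries were apart only between 2HG0142950 and 5HG0494180, between 7HG0680770 and 5HG0494170, between 5HG0529660 and 3HG0310780, between 7HG0684000 and 1HG0062640, and between 3HG0291180 and 6HG0570200. The 6 members without a listed SBP domain or ankyrin entry were short models, spanning 321–1041 bp, and their mean levels were between 0.0683 and 10.6 TPM. Of these, 3 overlapped no RefSeq gene model of the same assembly (1HG0000920, 5HG0453310 and 6HG0576760) and 1 lay on a RefSeq pseudogene (4HG0335860).

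**Figure D1:**
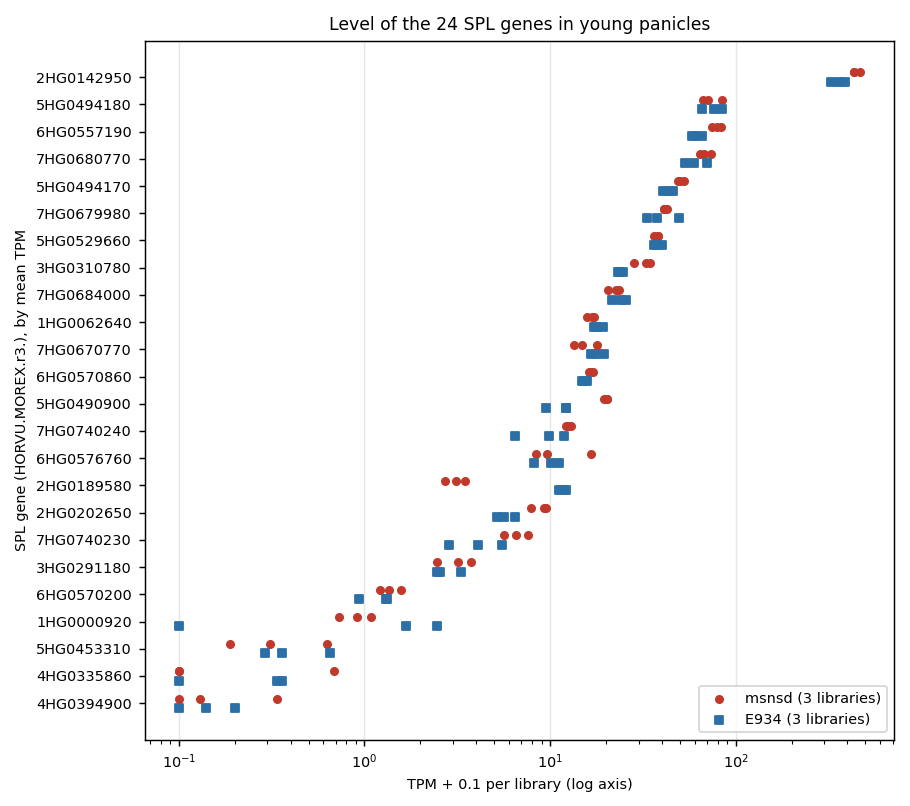
TPM plus 0.1 of the 24 SPL genes in the 6 libraries, on a log axis, with genes ordered by mean TPM; red circles are the 3 *msnsd* libraries and blue squares the 3 E934 libraries. 2HG0142950 lies apart at 325–469 TPM, and 2HG0189580 is the gene whose *msnsd* libraries (2.63–3.40 TPM) lie far to the left of its E934 libraries (11.12–12.09 TPM).

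The comparison of *msnsd* with E934 asks how the mutant's panicle transcriptome differs from that of its parent. Taken as a sum, the 24 genes were more abundant in the mutant. They summed to 965, 998 and 935 TPM in the *msnsd* libraries and to 808, 879 and 815 TPM in the E934 libraries, which is 966 ± 31.5 TPM in *msnsd* and 834 ± 39.1 TPM in E934 (SD, n = 3 each). The *msnsd* mean was 15.8% higher and the genotypes did not overlap. 2HG0142950 accounted for much of the difference. Without it the sums were 520 ± 18.4 TPM in *msnsd* and 475 ± 19.2 TPM in E934, 9.55% higher in *msnsd*, and the libraries were still apart. No test was made of these sums. In bulk panicles, more RNA per cell and more cells of a type that expresses the gene cannot be told apart.

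2HG0189580 was the member with the largest difference, and it was lower in *msnsd*. It lies on chromosome 2H (595827797–595834066) and had 2.63, 3.40 and 3.0 TPM in the *msnsd* libraries, against 12.09, 11.12 and 11.66 TPM in the E934 libraries. All 3 *msnsd* libraries were far below all 3 E934 libraries, and the *msnsd* mean was 0.259 of the E934 mean. The log2 fold change on log2(TPM + 0.1) was −1.92 (SE 0.14, 95% interval −2.26 to −1.58). It remained between −2.01 and −1.66 over the main fit and the 14 alternatives, including those that left out 1 library. Because the gene was named for this difference in the same libraries, the interval and the range describe it and do not test it. The gene formed 0.311% ± 0.035 of the family's TPM in *msnsd* and 1.4% ± 0.119 in E934 (SD, n = 3 each). It was a minor member of the family by level in both genotypes.

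The genes around 2HG0189580 differed widely in level, from close to 0 TPM up to means of 65.2 TPM in *msnsd* and 81.7 TPM in E934 for 2HG0189600. Of the 5 annotated genes on either side, 9 had enough TPM to be tested and their median log2 fold change was −0.15. At an unadjusted p under 0.05 (limma) none was higher in *msnsd* and 1 was lower, against 5.58% higher and 5.09% lower over all genes tested. With 9 genes these counts are a description. None was called with the rule given below. The 1 that was lower, 2HG0189570 (annotated as an RWP-RK family protein, chromosome 2H, 595827290–595827775), ends 21 bp before 2HG0189580, and 218 of its 486 bp lie in the RefSeq model that covers the SPL gene. It had 0.10, 0.40 and 0.00 TPM in *msnsd* and 0.64, 0.58 and 0.43 TPM in E934, with a log2 fold change of −1.58 (limma, unadjusted p = 0.0435, adjusted p = 0.452). Its low level means that this fold change depends on the pseudocount. Since the strandedness of the libraries was not stated, reads at the border of these models could not be assigned with certainty. The other low gene with a large negative value, 2HG0189450, had 0.00, 1.13 and 0.32 TPM in *msnsd* and 2.07, 0.32 and 1.59 TPM in E934, which overlapped (log2 fold change −1.63, limma adjusted p = 0.593). A further low gene, 2HG0189460, went the other way. It had 0.30, 0.43 and 0.85 TPM in *msnsd* and 0.53, 0.00 and 0.15 TPM in E934, which also overlapped (log2 fold change 1.23, limma adjusted p = 0.583).

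For the other members, differences were tested with limma on log2(TPM + 0.1) across all 32968 genes. A gene was called where its log2 fold change reached 1.5 in either direction with a Benjamini-Hochberg adjusted p no higher than 0.05, which 16 genes (0.0485%) passed. This count was 0 without any 1 of the *msnsd* libraries or replicate 3 of E934, 5 without replicate 2 of E934 and 22 without replicate 1 of E934. Apart from 2HG0189580, which was chosen for this contrast, 0 of the 22 tested members were called. Their smallest adjusted p was 0.0906 and their log2 fold changes ran from −0.29 to 0.84. The 24th gene, 4HG0394900, had at most 0.24 TPM in any library and was not tested.

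At an unadjusted p under 0.05, however, 7 of the 22 members (31.8%) were higher in *msnsd* and 0 were lower. Over all genes tested these shares were 5.58% higher and 5.09% lower, 10.7% in all. With 1 library left out a member was lower in 2 fits, 7HG0670770 without replicate 1 of *msnsd* and 1HG0000920 without replicate 1 of E934. In 9 of the 22 (40.9%) all *msnsd* libraries were above all E934 libraries, against 8.73% of all genes, and in 0 were they all below, against 7.86%. A positive log2 fold change was found for 15 and a negative one for 7, and 47.6% of all genes had a positive one. The median log2 fold change of the 22 was 0.18, against −0.02 over all genes tested. This median was 0.09 without replicate 1 of E934 and 0.12 without replicate 1 of *msnsd*, and the count of 7 ranged from 5 to 9 when each library was left out in turn. These members were chosen with earlier results of the same libraries known, and they are not independent of each other, so the shares are a description. RefSeq places 5HG0494170, which is among the 7 and the 9, in 1 gene model with 5HG0494180, which is in neither.

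**Figure D2:**
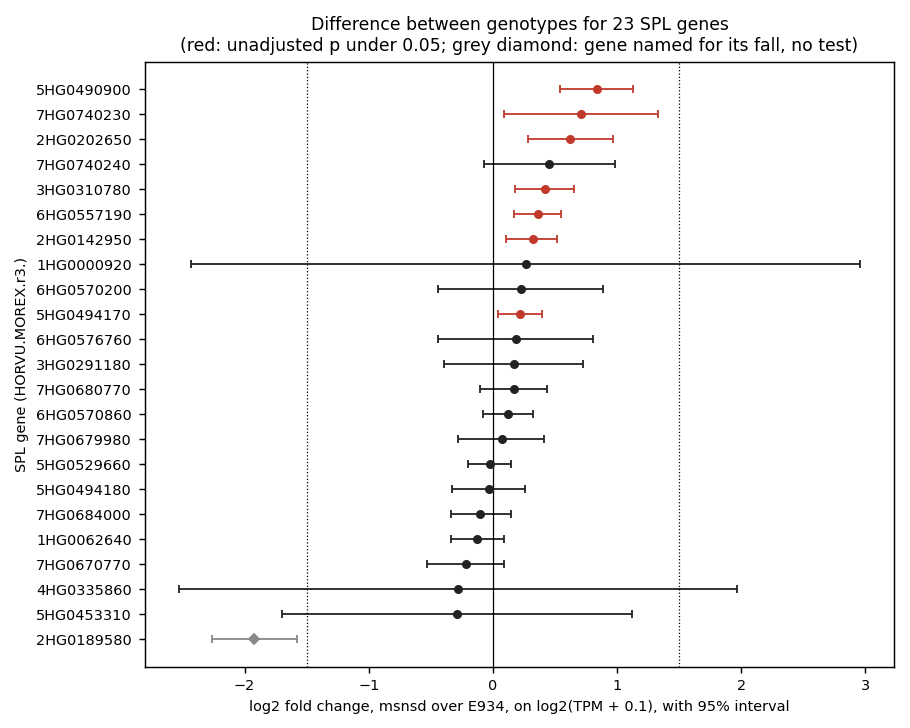
Log2 fold change of *msnsd* over E934 on log2(TPM + 0.1) for the 23 SPL genes that were tested or described, with the 95% interval; dotted lines mark 1.5 in either direction. The 7 red genes had an unadjusted p under 0.05 and all lie between 0.22 and 0.84, and the grey diamond is 2HG0189580 at −1.92, shown without a test. The interval of that gene is a description only.

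The 7 members that were higher at an unadjusted p under 0.05 all had a listed SBP domain. Together they summed to 642 ± 24.4 TPM in *msnsd* and 508 ± 34.2 TPM in E934 (SD, n = 3 each), 26.3% higher in *msnsd*. As these 7 were picked for being higher, their sum had to be higher too and adds no support. The largest difference was that of 5HG0490900 (chromosome 5H, 478359420–478362620). It had 20.17, 20.20 and 19.50 TPM in *msnsd*, against 12.14, 9.41 and 12.08 TPM in E934, so that the lowest *msnsd* library was well above the highest E934 library. The ratio of means was 1.78 and the log2 fold change 0.84 (SE 0.12, 95% interval 0.54 to 1.13, limma unadjusted p = 0.000259). The adjusted p of 0.0906 missed the threshold, as it did in every alternative (0.072 to 0.345).

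The deposited annotation places a short low-confidence gene 76 bp beyond 5HG0490900. This gene, 5HG0490910 (478362697–478363062, described as ribonuclease H-like), lies wholly inside the RefSeq model that covers the SPL gene. It had 3.76, 5.41 and 2.91 TPM in *msnsd*, against 0.55, 1.18 and 0.42 TPM in E934. All *msnsd* libraries were higher, with a log2 fold change of 2.40 (SE 0.41, limma adjusted p = 0.107). It was chosen after its values were seen, and whether its reads belong to the SPL transcript was not tested.

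2HG0202650 (chromosome 2H, 629754948–629758561) had 9.22, 9.37 and 7.76 TPM in *msnsd* and 5.05, 5.57 and 6.39 TPM in E934. The libraries did not overlap and the ratio of means was 1.55, with a log2 fold change of 0.62 (SE 0.15, limma adjusted p = 0.216). The difference was opposite in direction to that of 2HG0189580 on the same chromosome. 3HG0310780 (chromosome 3H, 575376531–575380473) had 34.30, 28.22 and 32.80 TPM in *msnsd* and 23.28, 24.75 and 23.11 TPM in E934, a ratio of 1.34 and a log2 fold change of 0.42 (SE 0.10, limma adjusted p = 0.216). Its E934 libraries were close together and all lower than the *msnsd* libraries.

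Among the abundant members, 6HG0557190 (chromosome 6H, 52539972–52545019) was 1.29 times as high in *msnsd*, with a log2 fold change of 0.36 (SE 0.08, limma adjusted p = 0.19). 2HG0142950 averaged 446 ± 20.1 TPM in *msnsd* and 359 ± 32.5 TPM in E934 (SD, n = 3 each), with a log2 fold change of 0.32 (SE 0.09, limma adjusted p = 0.286). Though small as a fold, this was the largest difference in TPM of any member. For 5HG0490900, 2HG0202650, 3HG0310780, 6HG0557190 and 2HG0142950 the unadjusted p was under 0.05 in all 15 fits, those with 1 library left out included.

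The other 2 of the 7 were less stable. 7HG0740230 (chromosome 7H, 604639565–604642040) had 6.42, 7.47 and 5.53 TPM in *msnsd* and 5.40, 3.97 and 2.74 TPM in E934. The lowest *msnsd* library was barely above the highest E934 library, and the log2 fold change was 0.71 (SE 0.26, limma adjusted p = 0.407). When 1 library was left out, its unadjusted p stayed under 0.05 in 2 of 6 fits. The neighbouring member 7HG0740240, only 9844 bp further on, had 12.08, 12.84 and 12.37 TPM in *msnsd* and 11.86, 9.82 and 6.35 TPM in E934. It was also higher in every *msnsd* library, but E934 varied widely and the log2 fold change of 0.45 had a 95% interval of −0.07 to 0.98.

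5HG0494170 (chromosome 5H, 488255939–488256451), a low-confidence model of 513 bp with a listed SBP domain, had a log2 fold change of 0.22 (SE 0.08, limma adjusted p = 0.392). Its unadjusted p stayed under 0.05 in 3 of 6 fits with 1 library left out. It lies 2125 bp from 5HG0494180 (488258577–488259949), and RefSeq places both in 1 gene model (488255356–488260145). The log2 fold change of 5HG0494180 was −0.03 (95% interval −0.33 to 0.26). The difference between the 2 models was not tested.

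**Figure D3:**
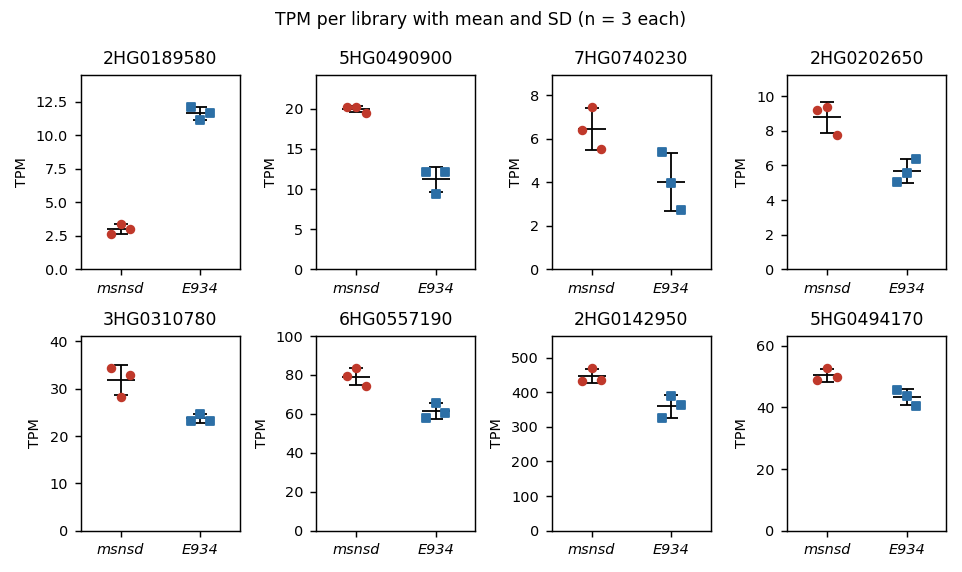
TPM in each library (y axis, starting at 0) for 2HG0189580 and for the 7 members with an unadjusted p under 0.05, with *msnsd* on the left and E934 on the right of each panel; the horizontal bar is the mean and the whiskers are the SD, n = 3 each. 2HG0189580 averages 3.01 TPM in *msnsd* and 11.6 TPM in E934, while in the other 7 panels every *msnsd* library lies above every E934 library. All genes shown were picked for their difference in these libraries.

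Sorted by annotated features, the higher members fell in 1 of 3 subgroups. There were 4 members with a membrane term or an ankyrin entry: 7HG0680770, 5HG0529660, 1HG0062640 and 7HG0670770. They spanned 4521–11851 bp, which overlaps the spans of the other members with an SBP domain (513–6270 bp), and had means of 16.6–64.6 TPM. None had an unadjusted p under 0.05 (the smallest was 0.14, limma), their log2 fold changes were between −0.22 and 0.17, and the median was −0.07. Over all genes tested 10.7% had such a p, so none of 4 is close to that share and does not set the subgroup apart. 5HG0529660, for which both features were listed, was the flattest, with 37.94, 36.22 and 37.96 TPM in *msnsd* and 36.42, 39.76 and 37.68 TPM in E934. Its log2 fold change of −0.02 had a 95% interval of −0.20 to 0.15. For 7HG0670770 the annotation listed the ankyrin entry and not the SBP domain.

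The 13 tested members with an SBP domain and no membrane term, 2HG0189580 aside, had a median log2 fold change of 0.32 and ran from −0.10 to 0.84. All 7 higher members were among them. Of the other 6, 7HG0679980 had 40.99, 42.36 and 40.95 TPM in *msnsd* and 49.62, 32.99 and 37.68 TPM in E934, so that the E934 libraries lay on both sides of the mutant. 7HG0684000 had a log2 fold change of −0.10 (95% interval −0.34 to 0.15). 6HG0570860 had 16.99, 16.41 and 16.16 TPM in *msnsd* and 15.14, 14.75 and 15.66 TPM in E934, a separation without overlap but of only 0.12 on the log2 scale. 6HG0570200 was low, at 1.28 ± 0.182 TPM in *msnsd* and 1.09 ± 0.217 TPM in E934 (SD, n = 3 each). The difference between the subgroups was not tested.

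In the third subgroup, the 5 tested members with neither feature, log2 fold changes were between −0.29 and 0.27 and the smallest unadjusted p was 0.502 (limma). None of 5 under 0.05 is also close to the 10.7% over all genes tested. 6HG0576760 had 16.54, 9.58 and 8.30 TPM in *msnsd* and 8.05, 11.11 and 9.97 TPM in E934. Its log2 fold change was 0.19, and −0.11 without replicate 1 of *msnsd*. 1HG0000920 had 0.98, 0.63 and 0.81 TPM in *msnsd* and 0.00, 1.58 and 2.36 TPM in E934. Its log2 fold change was 0.27 although its mean was lower in *msnsd*, and without replicate 1 of E934, where it was listed at 0, it was −1.18. 3HG0291180 had 3.04 ± 0.662 TPM in *msnsd* and 2.68 ± 0.481 TPM in E934 (SD, n = 3 each). 5HG0453310 and 4HG0335860 were below 0.6 TPM in all libraries.

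The genes that act with SPL factors in other plants were taken as lists by description. Of 20 tested genes described as AP2-like factors, 0 were higher and 1 was lower at an unadjusted p under 0.05, and the median log2 fold change was −0.07. Which of these genes miR172 represses was not checked, so the counts do not measure its action. The 1 lower gene was 4HG0394710, at 21 ± 2.18 TPM in *msnsd* and 27.3 ± 1.34 TPM in E934 (SD, n = 3 each). Of 49 tested genes of the small RNA machinery (argonaute, dicer and related proteins that make or load small RNAs), 0 were higher and 1 was lower, the Dicer-like 3 gene 1HG0044790, with a log2 fold change of −0.68 (limma adjusted p = 0.237). The shares of lower genes, 5% and 2.04%, did not exceed that over all genes tested. These counts were small and moved with single libraries: 3 AP2-like factors were lower without replicate 2 of *msnsd* and 2 without replicate 1 of E934, and 1 was higher without replicate 3 of *msnsd* and 2 without replicate 1 of E934, while 2 genes of the small RNA list were lower without replicate 1 of *msnsd*, 4 without replicate 1 of E934 and 5 without replicate 3 of E934.

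The MADS-box genes, which include flowering and floral organ regulators, held both higher and lower genes. Of 60 tested, 9 (15%) were higher and 12 (20%) were lower at an unadjusted p under 0.05, with 0 called. The smallest unadjusted p was that of 7HG0721170, with 66.39, 76.39 and 62.88 TPM in *msnsd* and 110.52, 118.57 and 115.15 TPM in E934 (log2 fold change −0.75, limma adjusted p = 0.061). The next smallest was that of a higher gene, 7HG0664320, at 14.1 ± 2.96 TPM in *msnsd* and 4.23 ± 1.06 TPM in E934 (SD, n = 3 each). Its log2 fold change was 1.72 (limma adjusted p = 0.0738). Of the 13 tested TCP genes, regulators of growth and branching, 5 (38.5%) were higher and 1 was lower, and the median log2 fold change was 0.21. The count higher was 3 without replicate 1 or replicate 2 of *msnsd*, and the count lower was 2 without replicate 1 or replicate 2 of E934. The most significant, 2HG0183310, had 15.2 ± 1.4 TPM in *msnsd* and 8.71 ± 0.659 TPM in E934 (SD, n = 3 each), with a limma adjusted p of 0.0906. In the FT and TFL1 family, regulators that promote or delay flowering, 2 of 9 were higher and 0 were lower, and 1 was called: the terminal flower 1 gene 4HG0407080, with a log2 fold change of 3.88 (SE 0.38, limma adjusted p = 0.0427). This call was lost in the 4 fits with 1 library left out in which no gene was called, and 1 member of the family was lower without replicate 1 or replicate 3 of E934. The other of the 2 higher genes, the terminal flower 1 gene 2HG0166090, had 71.6 ± 13.4 TPM in *msnsd* and 13.5 ± 5.66 TPM in E934 (SD, n = 3 each). Its log2 fold change was 2.49 (limma adjusted p = 0.0748). A share of higher genes above the 5.58% over all genes tested was thus not limited to the SPL family: it was also found in the TCP, FT and TFL1 and MADS-box lists and in the 4 lists of tissue markers given above. In short lists a single gene is enough for this, as with 1 of 2 LEAFY-like and 1 of 4 rubisco small subunit genes. For the chlorophyll a-b binding genes the share was 7.41%, both higher and lower.

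**Figure D4:**
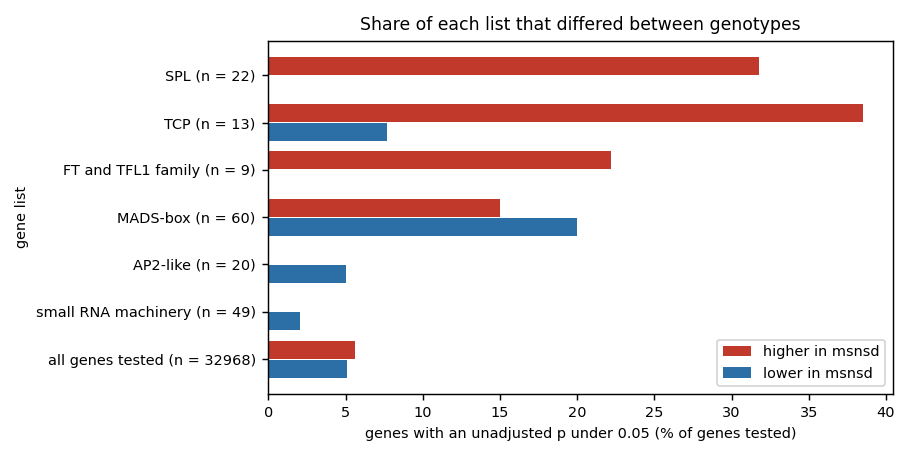
Percentage of tested genes in each list with an unadjusted p under 0.05 (x axis, starting at 0), higher (red, upper bar) and lower (blue, lower bar) in *msnsd* than in E934; n is the number tested, and the 22 SPL genes exclude 2HG0189580. The SPL and TCP lists have 31.8% and 38.5% higher, the MADS-box list has 15% higher and 20% lower, and all genes tested have 5.58% higher and 5.09% lower.

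Some members lie close to MADS-box genes. Within 5 annotated genes on either side, 4 of the 24 SPL genes (16.7%) had a MADS-box gene, at 3 loci, against 1.57% of the 40180 genes placed on chromosomes. Beside 7HG0684000, the MADS-box gene 7HG0684020 had 80.37, 82.96 and 76.30 TPM in *msnsd* and 124.00, 119.07 and 106.66 TPM in E934. Its log2 fold change was −0.54 (limma adjusted p = 0.0906), while that of the SPL gene was −0.10. Beside 5HG0494170 and 5HG0494180, the MADS-box gene 5HG0494190 had 52.6 ± 4.33 TPM in *msnsd* and 73.1 ± 6.71 TPM in E934 (SD, n = 3 each), with a log2 fold change of −0.47 (limma adjusted p = 0.168). At the 3HG0310780 locus, 3HG0310820 had 41.3 ± 1.97 TPM in *msnsd* and 27.4 ± 8.28 TPM in E934 (SD, n = 3 each). Its log2 fold change was 0.63 (limma adjusted p = 0.343), and its libraries did not overlap. The second MADS-box gene there, 3HG0310850, had 23.6 ± 7.94 TPM in *msnsd* and 32 ± 4.76 TPM in E934, a log2 fold change of −0.48 (limma adjusted p = 0.52). The second MADS-box gene beside 7HG0684000, 7HG0684050, had a log2 fold change of −0.61 (limma adjusted p = 0.555), and its libraries overlapped. Of these 5 MADS-box genes, 4 had a negative log2 fold change, and none was called. Over all genes tested 47.6% had a positive one, and the median of the MADS-box list was −0.11. With 5 genes the count is a description.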

How the data were processed

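Total RNA was sequenced from 3 *msnsd* and 3 E934 panicle samples, grouped by the sample labels. The submitters' processing notes name fastp. The authors mapped clean reads, quantified transcripts with Salmon 1.9.0 on the Morex V3 assembly and deposited TPM per gene and library, to 2 decimals. How transcripts were combined into genes is not given in the sources used here. The deposited TPM sum to 999916–999936 per library, so depth is unknown and no counting interval is given. Between 33227 and 35537 genes were above 0. The authors' columns of their own DESeq2 comparison (mean count, fold changes, errors, statistics, p- and q-values) were not used.

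Genes with a mean of at least 0.1 TPM were tested with limma 3.58.1 (R 4.3.3) on log2(TPM + 0.1), which understates the change of low genes, with a mean-variance trend and genotype as the only term. P-values are two-sided, with Benjamini-Hochberg adjustment over 32968 genes. The thresholds, an absolute log2 fold change of 1.5 and an adjusted p of 0.05, are those of the study. On simulated data with 32968 genes, the test called 92 of 100 genes given a log2 change of 3, 79 of 100 given a log2 change of 2, and 4 unchanged genes. The changed genes were drawn only from those with a level above about 1 TPM, with normal noise. The rates therefore do not cover lower genes. Smaller changes were not simulated.

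Values in every library are given for 2HG0189580, for members with an unadjusted p under 0.05 and for the 5 most abundant members. Other members and list genes given by value were the extremes of their subgroup or had the smallest p of their list, or were chosen after their values were seen. The SPL genes and all lists were chosen with earlier results of these data known. Positions were compared with the RefSeq models of this assembly. No sequences are shown. Alternatives were pseudocounts of 1 and 0.01, a filter at 1 TPM and none, median-of-ratios and quantile scaling, no trend, a replicate block, and each library left out. Python 3.11.15, pandas 2.3.3 and matplotlib 3.10.9 were used for the rest.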

Additional observations from a re-analysis of the deposited data

How the results depend on the processing

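Of 320 log2 fold changes of single members under 14 alternatives, 15 changed sign and the others kept their direction, though not always their size. That of 2HG0189580, a description, was −1.66 at a pseudocount of 1. At a pseudocount of 1, 1HG0000920 was at −0.19 and 4HG0335860 at 0.01. With each library left out in turn, the log2 fold change ranged from −1.18 to 1.13 for 1HG0000920, −1.20 to 0.19 for 4HG0335860, −0.75 to 0.12 for 5HG0453310, −0.11 to 0.38 for 6HG0576760, −0.05 to 0.01 for 5HG0529660, −0.13 to 0.05 for 5HG0494180 and −0.06 to 0.23 for 7HG0679980. The median over the 23 members that passed the filter, 2HG0189580 included, was 0.17 and ranged from 0.08 to 0.23 with 1 library left out, and was 0.22 over members with a listed SBP domain. The difference in summed TPM was 132, and ranged from 116 to 155 with 1 library left out.

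The calls were less stable than the values. Over all genes 16 were called, against 25 with a filter at 1 TPM, 30 without the trend and 0 with the replicate number as a block. With 1 library left out the count ranged from 0 to 22, and it was 0 in 4 of the 6 fits. The number of SPL genes past both thresholds was 1, 0 with the replicate block, and 0 to 1 with 1 library left out. The 1 was 2HG0189580, which had been chosen for this difference, so the number is no test of it. The count of members higher at an unadjusted p under 0.05 was 7, also 7 with the block, 6 without the trend, and 5 to 9 with 1 library left out. With the block, 2 AP2-like factors were higher, against 0, and 4 genes of the small RNA list were lower, against 1. Deviations of same-numbered libraries correlated at 0.0186, −0.16 and 0.073 for replicates 1, 2 and 3 (23079 genes), so no strong shared shift was seen. Such correlations cannot tell whether same-numbered samples were collected or prepared together. The causes of these changes were not tested. Members below 1 TPM could not be compared reliably, and with 3 libraries per genotype differences of the size seen in most members were not separable after adjustment.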
